A study of Homo sapiens with 20 samples.

Results

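The clustered histone genes are the genes for the core histones H2A, H2B, H3 and H4 and the linker histone H1 that lie side by side in the HIST1 to HIST4 clusters. They were chosen by name, as every symbol that begins with HIST and a cluster number and carries no pseudogene ending, which gave 75 genes of the 57773 listed in both count tables and left out 14 named pseudogenes. By family they comprise 6 H1, 17 H2A, 23 H2B, 14 H3 and 15 H4 genes. Their symbols are those of the deposited tables, so that HIST1H1B is now called H1-5 and HIST1H2BO is now called H2BC17.

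These genes supply the histones that package newly copied DNA, and dividing cells transcribe them mostly in S phase. Their messages are short, lack introns and, alone among animal mRNAs, usually end in a stem-loop in place of a poly(A) tail. The stem-loop is bound by SLBP, and U7 snRNP and a cleavage complex cut the transcript a few bases past it, while NPAT switches the clusters on at the start of S phase. Several of the genes can also make a longer, polyadenylated message, chiefly in cells that leave the cycle. A library made from total RNA holds both kinds of message, whereas one made from poly(A) RNA loses most of the first.

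All RNA came from LNCaP, a human prostate adenocarcinoma line that responds to androgen. In one experiment, LNCaP cells received 20 nM of an siRNA pool for 2 days, either against the lysine methyltransferase EHMT1 (siEHMT1, 2 samples) or a nontarget control pool (siNTC, 2 samples). In the other, 4 stable LNCaP lines carried a lentiviral, doxycycline-inducible EHMT1 that was wild type (WT) or had 1 of 2 neighbouring lysines changed to arginine (K450R and K451R) or both (K450RK451R). Each line was kept in vehicle (Veh) or for 2 days in 0.25 µg/mL of doxycycline (Dox). The labels give no time for Veh. Every stable line carried an EHMT1 construct and none received Dox without one, so the effects of Dox itself and of EHMT1 induction cannot be told apart. The sources used here do not say whether a line was 1 clone, nor that the 2 columns of a condition were separate cultures.

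Sequences were read from the GRCh37 genome for the 71 genes with a position, of which 52 lie on chromosome 6, 18 on chromosome 1 and 1 on chromosome 12. The 3′ stem-loop is shown first because it is what sets these messages apart in total RNA. Within 150 bases after the stop codon, 64 of the 71 genes held a stem of 6 base pairs around a loop of 4 bases that matched the letters NGNNNNTTNNNNNNCN. The loop began within the same short window in all of them, the stem starting 23 to 68 bases after the stop codon with a median of 37. The 4 commonest forms are given below 5′ to 3′ as DNA letters, with the loop in capitals.

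HIST1H1B, HIST1H2BO and 37 other genes: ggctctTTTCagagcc

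HIST1H2BK, HIST1H1T and 7 other genes: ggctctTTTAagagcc

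HIST1H4C and 8 other H4 genes: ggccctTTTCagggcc

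HIST1H4I and 3 other H4 genes: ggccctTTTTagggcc

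The stem separated the families. All 13 H4 genes with a stem-loop had the form beginning ggccct, and none of the 51 from the other families began this way. Single changes were found in HIST1H2AG, HIST1H2AK and HIST2H2AC, each with a form of its own. In HIST1H1B (chr6:27834570-27835366, GRCh37, minus strand, 1 exon) and HIST1H2BO (chr6:27861203-27861669, plus strand, 1 exon) the annotated transcript stops 5 and 6 bases past the stem. By the annotated end, 46 of the 71 genes had a stem-loop end only, and 18 also had a transcript that was spliced or ran more than 100 bases past the stem. A further 3 had no stem-loop in the window, and 4 were annotated as not protein coding.

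The upstream sequence also differed by family. RefSeq promoters on GRCh38.p14 were matched for 65 genes. The octamer ATTTGCAT, the recognition sequence of the OCT1 factor, stood in 11 of 16 H2A and 14 of 18 H2B promoters on either strand, in none of the 6 H1, 12 H3 or 13 H4 promoters, and in 1.77% of all 35116 promoters of the same length. CCAAT was found in every H1, H2A, H2B and H3 promoter but in only 3 of 13 H4 promoters, against 34.6% of all promoters. TATAAA was found in 66.2% of the members' promoters and 11.5% of all. The 250 bases before the start of the 2 genes that were called with Dox are shown, with the CCAAT, octamer and TATAAA matches of either strand in capitals.

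HIST1H1B (chr6:27867589-27867838, minus strand): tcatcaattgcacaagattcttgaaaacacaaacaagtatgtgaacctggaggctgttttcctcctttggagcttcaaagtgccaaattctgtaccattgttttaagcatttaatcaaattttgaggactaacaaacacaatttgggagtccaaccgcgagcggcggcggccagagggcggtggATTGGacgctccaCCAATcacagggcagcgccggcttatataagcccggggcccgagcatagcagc

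HIST1H2BO (chr6:27893175-27893424, plus strand): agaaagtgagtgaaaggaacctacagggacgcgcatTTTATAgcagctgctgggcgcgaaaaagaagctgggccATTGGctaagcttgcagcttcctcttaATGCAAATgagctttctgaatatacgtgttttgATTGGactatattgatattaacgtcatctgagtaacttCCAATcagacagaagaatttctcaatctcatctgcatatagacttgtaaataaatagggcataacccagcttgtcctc

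HIST1H1B held 2 CCAAT matches and no octamer, and HIST1H2BO held 3 CCAAT matches and 1 octamer. These matches describe the letters in the window. Among the positioned genes, 14 pairs were divergent with at most 1000 bases between them, and 12 of these joined an H2A to an H2B gene. HIST1H2BO was paired with both HIST1H2AM and HIST1H3J. The paired H2B genes HIST2H2BC and HIST2H2BD are annotated as not protein coding. The median gap over the 14 pairs was 241 bases.

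The siRNA samples held 5593400 to 12438006 counts each, and the stable-line conditions 8436791 to 12407739. The 2 columns of each stable-line condition differed by no more than counting noise (chi-square per degree of freedom 0.995 to 1.02) and were summed and counted as 1 sample, whereas the siNTC and siEHMT1 samples differed by more (6.58 and 6.17 without 2 rRNA-like pseudogenes). Those pseudogenes took 10.0% of the counts of siNTC replicate 2 and 0.0531% to 1.00% of the other siRNA samples, so that library stands apart. EHMT1 was 87.8 and 83.6 CPM with siNTC, 29.2 and 30.7 CPM with siEHMT1, 71.7 to 88.9 CPM with Veh and 663 to 842 CPM with Dox. All 12 luminal prostate markers were detected in every library, at a summed 6919 to 13323 CPM. Markers of other cell types summed to 28.9 to 31.1 CPM with siNTC, 41.1 to 42.2 with siEHMT1, 42.2 to 54.1 with Veh and 41.4 to 47.2 with Dox. Of these, COL1A1 (15.3 to 40.8 CPM), VWF (3.35 to 15.97) and ACTA2 (2.8 to 8.25) were detected in every library. PTPRC, COL1A2, KRT5 and TP63 were at 0 throughout. Levels are given as CPM, counts scaled to library size, after TMM scaling within each experiment.

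Not every clustered gene could be counted. Of the 75, 46 had over 100 counts in all, 18 had 1 to 100 and 11 had none, and 3 counts correspond to 0.241 to 0.536 CPM per library. For 6 of the 11, the pairs HIST2H2AA3 and HIST2H2AA4, HIST2H3A and HIST2H3C, and HIST2H4A and HIST2H4B, no stretch of 51 bases (the read length) was unique in the genome. Their 0 counts therefore say nothing of their expression. Uniqueness was also low in HIST1H4K (7.42% of stretches, 1 count in all), HIST1H4J (7.97%), HIST2H3D (21.7%), HIST2H2BF (26.7%), HIST1H2AJ (33.8%), HIST1H2AI (36.6%), HIST1H2BK (43.4%) and in the low HIST2H2BA (18.2%), HIST2H2BC (20.4%) and HIST2H2BD (4.97%), so the levels of these genes are uncertain. A second set was unique yet near the floor. Among the variants known from testis, HIST1H2AA had 0 counts over all libraries, HIST1H1A 2, HIST1H2BA 4 and HIST3H3 1, while the testis linker histone HIST1H1T had 415.

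**Figure D1:**
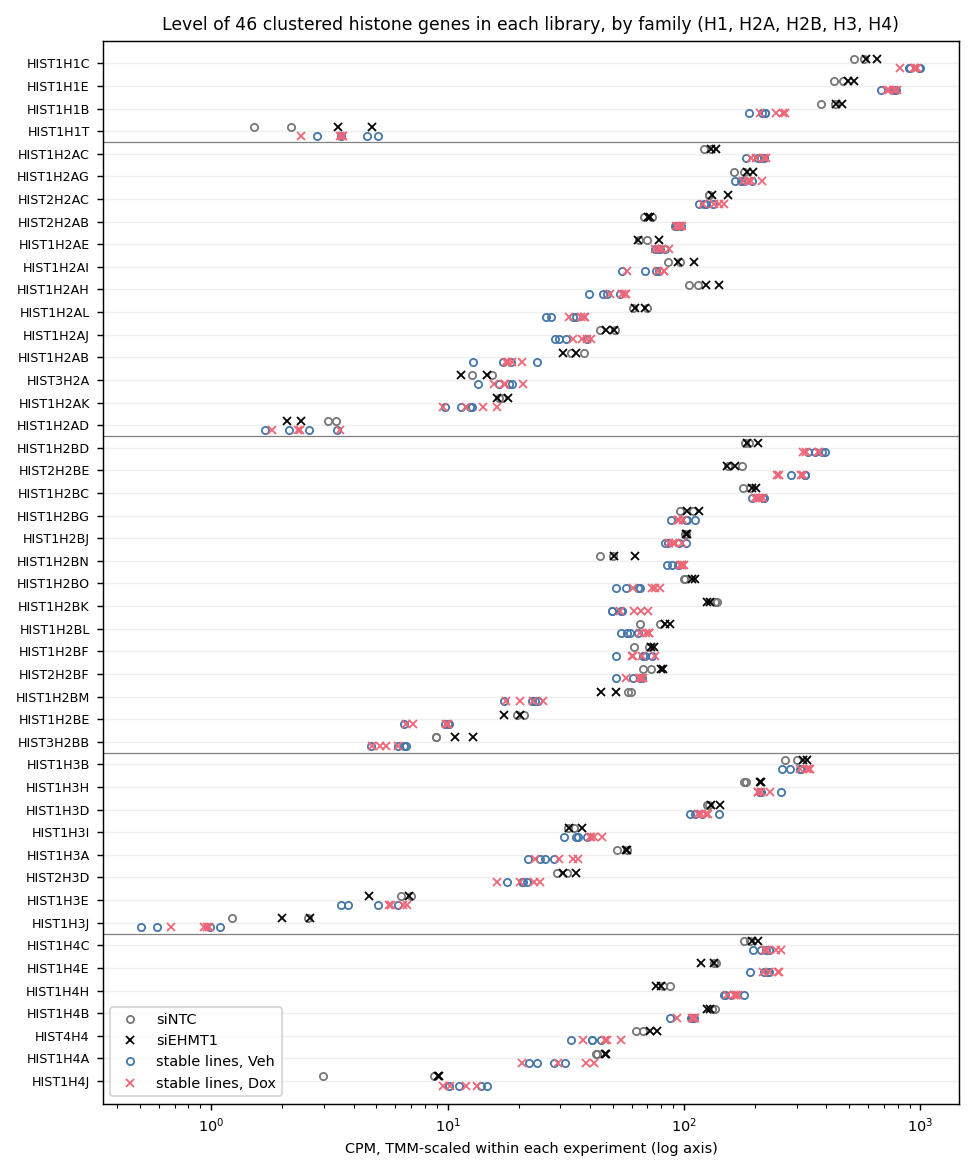
CPM (log axis) of the 46 clustered histone genes with over 100 counts, 1 mark per library, ordered within families by mean level. Grey circles are siNTC, black crosses siEHMT1, blue circles stable lines with Veh and red crosses with Dox. HIST1H1C and HIST1H1E lead at over 400 CPM in every library, and HIST1H1T, HIST1H2AD and HIST1H3J are the lowest.

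A few genes supplied most of the signal. The 10 most counted genes held 61.0% of all counts on clustered histone genes and the first 3, HIST1H1C, HIST1H1E and HIST1H3B, held 31.5%. Of the H1 genes, HIST1H1C, which encodes the linker histone H1.2, had a mean of 862 CPM over the 10 conditions, HIST1H1E (H1.4) 699 CPM and HIST1H1B (H1.5) 268 CPM. The H1.3 gene HIST1H1D had 0.375 CPM, and its sequence was fully unique. Per kilobase of the annotated transcript, the mean level was 1179 for HIST1H1C, 888 for HIST1H1E, 665 for HIST1H2BD, 605 for HIST1H3B, 541 for HIST1H4C and 503 for HIST1H4E. The leading H2A genes HIST1H2AG and HIST1H2AC stood at 373 and 368 per kilobase. All counts of a gene were divided by the length of 1 annotated transcript. HIST1H2BD and HIST1H2AC also have a longer transcript whose length was left out, so their values are not on the same footing as the rest. Members of divergent pairs were not equal in level. HIST1H2BC and HIST1H2AC had means of 205 and 191 CPM, HIST2H2BE and HIST2H2AC 271 and 130 CPM, and HIST1H2AM and HIST1H2BO 0.131 and 73.6 CPM.

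Together the clustered histone genes took 0.441% to 0.640% of all counted reads. The share was 0.560% (95% Wilson interval 0.555 to 0.565) and 0.441% (0.435 to 0.446) in siNTC replicates 1 and 2, and 0.566% (0.562 to 0.571) and 0.534% (0.530 to 0.538) in siEHMT1 replicates 1 and 2. These intervals cover counting error only, and the siEHMT1 samples overlapped with siNTC. With TMM-scaled library sizes the same 4 shares were 0.522%, 0.487%, 0.559% and 0.531%, so that both siEHMT1 samples then stood above both siNTC samples.

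In the stable lines the share was higher with Dox in each line. For WT it went from 0.508% to 0.573%, for K450R from 0.589% to 0.602%, for K451R from 0.575% to 0.639% and for K450RK451R from 0.585% to 0.640%. The groups overlapped, because WT with Dox was below K450R, K451R and K450RK451R with Veh. Mitochondrial reads moved the other way in 3 lines, falling from 13.0% to 9.76% of counts (WT), 14.4% to 10.4% (K451R) and 12.3% to 8.04% (K450RK451R), while K450R went from 12.05% to 13.7%. Without mitochondrial and rRNA-like genes in the total, the log2 ratio of Dox over Veh was 0.12, 0.06, 0.09 and 0.06 for WT, K450R, K451R and K450RK451R, against 0.17, 0.03, 0.15 and 0.13 over all counts. With TMM-scaled library sizes it was 0.14, 0.0074, 0.024 and −0.0050, so the direction in K450RK451R depended on the scaling. No test is given for a sum over genes that were chosen with results known.

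**Figure D2:**
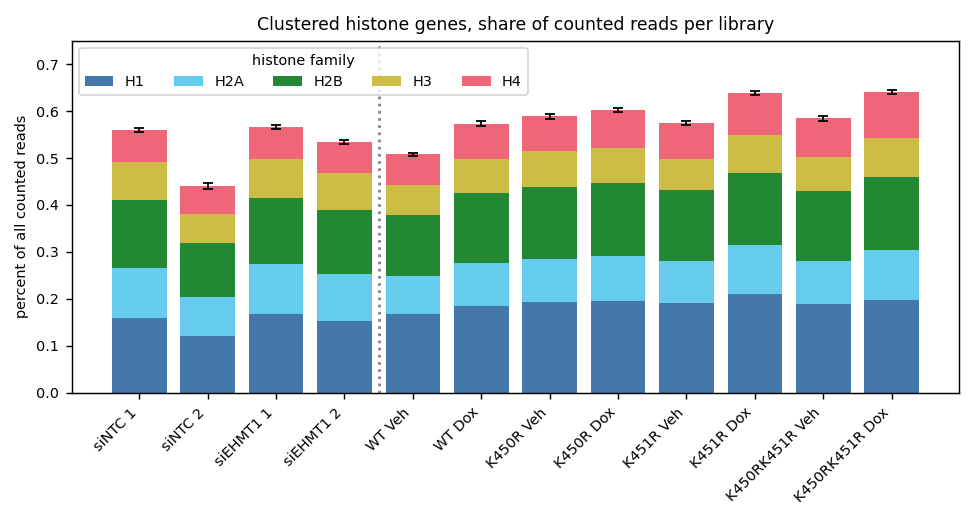
Share of all counted reads on clustered histone genes in each library (percent, bars from 0), stacked by family, with 95% Wilson intervals of the total as error bars. The bars run from 0.441% in siNTC replicate 2 to 0.640% in K450RK451R with Dox, and H1 and H2B genes are the tallest segments in every library.

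The 2 experiments drew on the clusters in different proportions. They were separate libraries, prepared from differently handled cells, so the shares are given side by side with no test. HIST1H1B took 7.76% to 8.31% of the clustered histone counts in the 4 siRNA samples and 3.502% to 4.46% in the 8 stable-line conditions. HIST1H2BK took 2.30% to 2.82% and 0.842% to 1.20%, and HIST1H2AH 2.16% to 2.52% and 0.745% to 0.937%. The opposite order was seen in HIST1H1C, with 10.7% to 11.8% and 13.9% to 16.8%, HIST1H2BD, with 3.46% to 3.73% and 5.44% to 6.44%, and HIST2H2BE, with 2.86% to 3.36% and 4.18% to 5.50%. None of these ranges overlapped between the experiments, whereas those of HIST1H4C did (3.43% to 3.89% and 3.47% to 4.38%). Genes outside the clusters separated too. PCNA was 198 to 219 CPM in the siRNA samples and 50.98 to 96.7 CPM in the stable lines, and KLK3 2917 to 3125 and 7349 to 8322 CPM. RRM2 overlapped, at 95.7 to 104 and 91.2 to 106 CPM. Separation was thus not particular to clustered histone genes, and its frequency over all genes was not counted. The summed level of 50 S-phase genes was 3221 to 3333 CPM in the siRNA samples and 2074 to 2295 CPM in the stable lines, and its part in the difference was not tested.

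The first comparison asked whether the clustered histone genes moved when EHMT1 was silenced. None of the 46 tested genes passed an adjusted p of 0.05 with edgeR's quasi-likelihood test, in either direction, where 0.0619% of all tested genes were called higher and 0.0688% lower. At an unadjusted p under 0.05, 6 were higher and 1 was lower, against 4.46% and 5.09% of all genes. DESeq2 gave 0 calls after adjustment, where 0.0138% of all genes were called higher and 0.0688% lower. Before adjustment it gave 3 higher and 0 lower, where 215 of all 14532 genes were higher and 311 lower. The log2 fold changes of siEHMT1 over siNTC were positive in 35 genes and negative in 11, with a median of 0.10 against −0.002 over all 14532 genes. Between replicates of 1 group the median difference over the same genes was of like size, −0.097 for siNTC replicate 2 less replicate 1 and −0.079 for siEHMT1. Both siEHMT1 samples lay above both siNTC samples in 23 of the 46 genes, against 19.9% of all genes, and below in 6, against 19.8%. The median was 0.05 without siNTC replicate 2 or without siEHMT1 replicate 1, and 0.13 without siNTC replicate 1. The design had 2 samples per group, and the sources used here do not say whether they were separate cultures.

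The 4 tested linker histone genes of 6 had positive values. HIST1H1C was 579 and 522 CPM with siNTC and 658 and 590.3 CPM with siEHMT1, so the groups did not overlap. Its log2 fold change was 0.18 (SE 0.094, adjusted p = 0.563 with edgeR). HIST1H1E and HIST1H1B had log2 fold changes of 0.16 and 0.15, each with both siEHMT1 samples above both siNTC samples. The largest value in either direction was that of HIST1H1T, at 1.51 and 2.17 CPM with siNTC and 3.44 and 4.79 CPM with siEHMT1, from 16, 11, 33 and 60 counts. Its log2 fold change was 1.23 (SE 0.37, unadjusted p = 0.00351 and adjusted p = 0.233 with edgeR).

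Of the tested H2A genes 10 had positive and 3 negative values, and of the H2B genes 10 and 4. HIST1H2AH was 114 and 105 CPM with siNTC and 141 and 124 CPM with siEHMT1, a log2 fold change of 0.27 (SE 0.097, adjusted p = 0.359 with edgeR). HIST1H2BM was 58.2 and 59.9 CPM with siNTC and 44.7 and 51.5 CPM with siEHMT1, a log2 fold change of −0.29 (SE 0.11, adjusted p = 0.383 with edgeR). Neither gene's groups overlapped, and the 2 genes stood in opposite directions. HIST1H2AD had 17 to 33 counts per sample and a log2 fold change of −0.51 (SE 0.35, adjusted p = 0.675 with edgeR). The family medians were 0.17 for H1, 0.03 for H2A, 0.10 for H2B, 0.10 for H3 and 0.11 for H4, and each stayed positive with library totals, upper-quartile or DESeq2 scaling.

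Among H3 genes, HIST1H3B was 300.1 and 266 CPM with siNTC and 332 and 318 CPM with siEHMT1 (log2 fold change 0.20, adjusted p = 0.488 with edgeR). HIST1H3H was 183 and 179 CPM with siNTC and 211 and 210.4 CPM with siEHMT1 (log2 fold change 0.22, adjusted p = 0.417 with edgeR). In both genes the siEHMT1 samples were the higher. The H4 genes pointed both ways, with HIST1H4C at 0.11 and HIST1H4E and HIST1H4H at −0.11 and −0.11. HIST1H4J was 8.78 and 2.96 CPM with siNTC and 9.08 and 9.18 CPM with siEHMT1, so its log2 fold change of 0.54 (adjusted p = 0.605 with edgeR) rested on siNTC replicate 2. Without siNTC replicate 1 it was 1.62 with an adjusted p of 0.0315 with edgeR, the 1 clustered histone gene called in any of the siRNA fits that left out a sample. That fit set 1 siNTC sample, with 15 counts for the gene, against 2, and took its spread from the siEHMT1 pair, so the lone sample was assumed to vary like them.

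**Figure D3:**
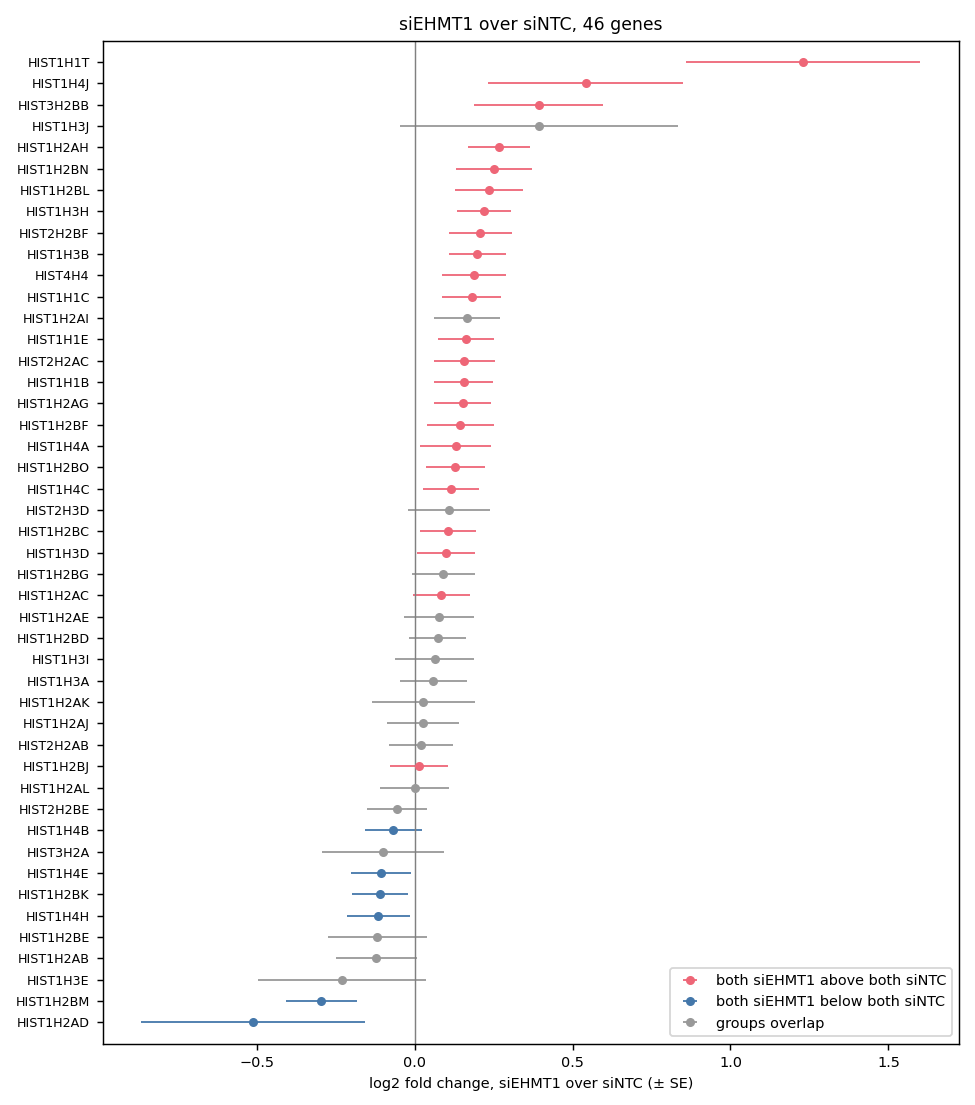
Log2 fold change of siEHMT1 over siNTC (horizontal axis, points with standard errors) for the 46 tested clustered histone genes, sorted by value. Red points have both siEHMT1 samples above both siNTC samples (23 genes), blue points both below (6 genes) and grey points overlap. None passed an adjusted p of 0.05, and HIST1H1T at 1.23 is the farthest from 0.

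The second comparison asked whether Dox, which raised EHMT1 in every line, changed the clustered histone genes over the 4 lines taken as replicates. HIST1H1B and HIST1H2BO rose and none fell at an adjusted p under 0.05 with edgeR, of 45 tested, where 0.603% of all tested genes rose and 1.51% fell. HIST1H1B, the gene of the linker histone H1.5, was 188, 215, 219.9 and 219 CPM with Veh and 209, 244, 267 and 261 CPM with Dox in WT, K450R, K451R and K450RK451R. Each line was higher with Dox, while WT with Dox lay below the Veh level of the other 3 lines. The log2 fold change was 0.22 (SE 0.054, adjusted p = 0.0287 with edgeR).

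HIST1H2BO, an H2B gene, was 51.5, 65.1, 63.6 and 56.9 CPM with Veh and 61.0, 75.4, 72.9 and 79.3 CPM with Dox in the same order. It was higher with Dox in all 4 lines and most of all in K450RK451R, and the groups overlapped through WT. The log2 fold change was 0.29 (SE 0.072, adjusted p = 0.0296 with edgeR). Neither gene remained called when K450R, K451R or K450RK451R was left out. HIST1H1B then had an adjusted p of 0.112, 0.228 and 0.126 and HIST1H2BO of 0.0936, 0.0751 and 0.222 with edgeR, at log2 fold changes of 0.20 to 0.23 and 0.22 to 0.31. With DESeq2, HIST1H1B remained called and HIST1H2BO did not (adjusted p = 0.0423 and 0.11). Without WT, 4 clustered histone genes were called higher and 1 lower with edgeR, where 1.27% of all genes were called higher and 2.25% lower.

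At an unadjusted p under 0.05, 15 were higher, the 2 called genes among them, and 1 was lower, against 6.86% and 7.55% of all genes. The median log2 fold change was 0.05 against 0.005 over all 14105 genes, with 34 values positive and 11 negative. In 15 of 45 genes the Dox sample was the higher in all 4 lines, against 10.6% of all genes, and in 0 of 45 it was the lower in all 4, against 10.3%. Scaling by library totals alone moved the median of all genes to 0.09 and the number of clustered histone genes called higher from 2 to 10, where 2.31% of all genes were then called higher.

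The H2A genes were positive in the fit over the 4 lines, 13 of 13 with values from 0.02 to 0.24 and a median of 0.11. HIST1H2AL (0.24), HIST1H2AJ (0.23) and HIST1H2AH (0.22) led, none of them called. Line by line they were not uniform, and 3 of the 13 were higher with Dox in all 4 lines, against 10.6% of all genes. HIST1H2AD was −0.51 in K450R, from 21 counts with Veh and 17 with Dox, and HIST1H2AB −0.44 in K450RK451R, from 236 and 228. HIST1H2AH was 39.7, 45.6, 53.7 and 47.1 CPM with Veh and 48.5, 56.0, 56.6 and 54.7 CPM with Dox in WT, K450R, K451R and K450RK451R. Every line was higher with Dox (adjusted p = 0.150 with edgeR). Its divergent neighbour HIST1H2BK was 49.4, 54.5, 54.2 and 49.5 CPM with Veh and 53.4, 61.1, 65.8 and 70.4 CPM with Dox. It too was higher in every line, with a log2 fold change of 0.27 (SE 0.077, adjusted p = 0.0592 with edgeR), on reads of which many cannot be placed uniquely.

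The H2B genes were split evenly, with 7 positive and 7 negative and a median of −0.01. HIST2H2BE was 283, 324, 326 and 323 CPM with Veh and 312, 319, 252 and 248 CPM with Dox. It was higher with Dox in WT and lower in the other 3 lines, with a log2 fold change of −0.16 (SE 0.068, adjusted p = 0.252 with edgeR) and of −0.26 without WT (adjusted p = 0.0121 with edgeR). HIST1H2BD and HIST1H2BC, with log2 fold changes of −0.08 and −0.02, were likewise positive in WT alone. The H2B median was 0.07 with library totals and 0.01 with upper-quartile scaling, so its sign depended on the scaling. Less the median of all genes, it was −0.013 with TMM, −0.013 with upper-quartile scaling and −0.014 with library totals.

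Among H1 genes, HIST1H1C and HIST1H1E had log2 fold changes of −0.04 and 0.01 beside the 0.22 of HIST1H1B, and HIST1H1T of −0.29 (SE 0.25). The H1 median of −0.02 became 0.07 with library totals, and less the median of all genes it was −0.02 under both scalings. H3 and H4 genes were mostly positive, 6 of 7 in each, with medians of 0.18 and 0.13 that stayed positive under each scaling. HIST1H3B was 259, 309, 281 and 313 CPM with Veh and 309, 338, 340.1 and 332 CPM with Dox, higher in every line (log2 fold change 0.18, SE 0.054, adjusted p = 0.0725 with edgeR). HIST1H4C and HIST1H4E had log2 fold changes of 0.14 and 0.13, each higher in all 4 lines. HIST1H3A (0.28) and HIST1H3E (0.41, SE 0.21) were also higher in all 4 lines and not called.

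**Figure D4:**
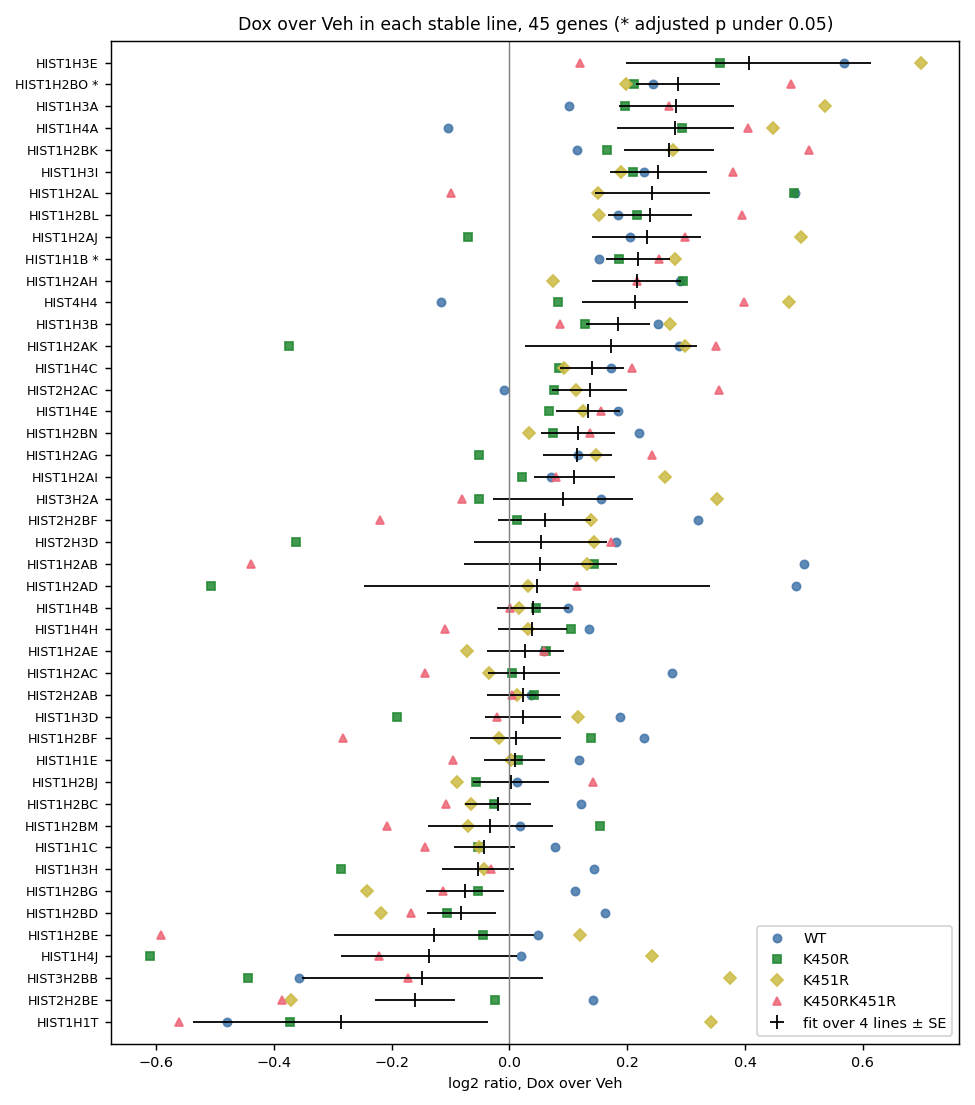
Log2 ratio of Dox over Veh (horizontal axis) for the 45 tested clustered histone genes in each of the 4 stable lines (coloured symbols), with the fit over the lines and its standard error (black). HIST1H1B and HIST1H2BO carry the asterisk for an adjusted p under 0.05, and HIST2H2BE, HIST1H2BD and HIST1H1C have WT alone on the positive side.

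The genes were also divided by the annotated 3′ end, which the choice of genes did not use. Of the 29 tested genes with a stem-loop end only, 25 had a positive Dox log2 fold change, 14 an unadjusted p under 0.05 in that direction (6.86% of all genes) and 13 higher values in all 4 lines (10.6% of all genes), with a median of 0.13. Of the 13 tested genes with a longer transcript as well, 7 were positive, 1 reached that p and 1 was higher in all 4 lines, with a median of 0.003. Most of these 13 were H2B genes, the family with a Dox median of −0.01, and few of the 29 were. The tested genes HIST1H2BF (0.01) and HIST1H2BG (−0.08), which had no position, and HIST1H3E (0.41), with no stem-loop found, were in neither class. Line by line, the stem-loop class had medians of 0.15 (WT), 0.07 (K450R), 0.15 (K451R) and 0.16 (K450RK451R), and the class with longer transcripts of 0.14, −0.03, 0.03 and −0.11 in the same order. HIST1H1B and HIST1H2BO belong to the stem-loop class, and HIST2H2BE, HIST1H2BD, HIST1H2BC and HIST1H3H to the class with longer transcripts. With siEHMT1 the corresponding medians were 0.11 and 0.10. The difference between the classes was not tested, reads on the 2 kinds of message were not separated, and members of a class are not replicates. Nor was the class of the 3′ end separated from the histone family. With library totals the Dox medians were 0.22 and 0.09. Less the median of all genes, they were 0.13 and −0.003 with library totals and 0.13 and −0.002 with TMM.

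The histone genes outside the clusters are given beside them, with no test of the difference. Of 12 tested replacement histone genes, which lie outside the clusters and are used outside S phase, 1 rose and 2 fell with Dox, and the median was −0.05. H3F3B, one of the H3.3 genes, was 643, 604, 573 and 497 CPM with Veh and 630.3, 521, 419 and 371 CPM with Dox, lower in every line (log2 fold change −0.28, SE 0.060, adjusted p = 0.00984 with edgeR). H2AFZ, the H2A.Z gene, was lower in every line too (log2 fold change −0.20, adjusted p = 0.0483 with edgeR). H2AFX, whose message can end in a stem-loop or a poly(A) tail, was 62.2, 71.5, 75.1 and 77.0 CPM with Veh and 69.8, 89.7, 102 and 113 CPM with Dox. It rose in every line (log2 fold change 0.38, SE 0.070, adjusted p = 0.00207 with edgeR).

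The genes that serve the clusters did not pass the test. Of 28 tested genes for histone pre-mRNA processing and transcription, 0 were called with edgeR in either comparison, and at an unadjusted p under 0.05 there were 1 higher and 2 lower with siEHMT1 and 1 higher and 1 lower with Dox. SLBP was 69.0, 66.1, 71.0 and 66.4 CPM with Veh and 71.2, 68.8, 59.8 and 58.5 CPM with Dox, higher in WT and K450R and lower in the other 2 lines (log2 fold change −0.08, adjusted p = 0.653 with edgeR). NPAT had log2 fold changes of 0.18 with Dox and −0.22 with siEHMT1 (adjusted p = 0.575 and 0.624 with edgeR). Of 22 histone chaperone genes, ASF1B, which hands H3 and H4 on to the assembly machinery, was the 1 called with Dox (log2 fold change 0.38, adjusted p = 0.0448 with edgeR). Of 50 S-phase genes 1 was called, the replication clamp PCNA, at 50.98, 59.7, 71.0 and 68.0 CPM with Veh and 62.2, 74.7, 88.5 and 96.7 CPM with Dox (log2 fold change 0.36, adjusted p = 0.00268 with edgeR), and the list's median was 0.05. With siEHMT1, 0 genes of these 4 lists were called with edgeR.

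Other RNAs that lack a poly(A) tail are set beside the stem-loop class, again with no test between the lists. Of 8 tested, 2 were called lower with Dox, RN7SL1 and RN7SL2, copies of the RNA of the signal recognition particle, with log2 fold changes of −0.28 and −0.26 (adjusted p = 0.0107 and 0.0112 with edgeR). The list's median was −0.18. The 2 RN7SL genes are near-identical, so their counts are uncertain as single values.

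**Figure D5:**
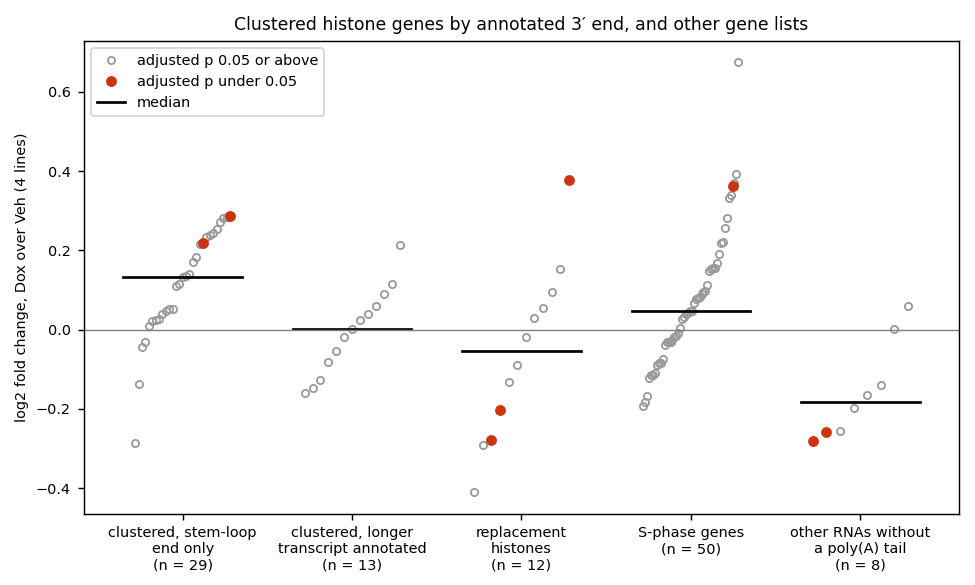
Log2 fold change of Dox over Veh over the 4 lines (vertical axis) for tested clustered histone genes by annotated 3′ end and for 3 other gene lists, 1 point per gene with the median as a line. Red points passed an adjusted p of 0.05. The stem-loop class has a median of 0.13, the class with longer transcripts 0.003, the replacement histones −0.05, the S-phase genes 0.05 and the other RNAs without a poly(A) tail −0.18.

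Within single lines, where each side was 1 library and no test was possible, few clustered histone genes passed 1.5-fold and none passed 2-fold. WT had 0 in either direction, against 4.74% of all genes higher and 6.44% lower (1.55% and 2.1% past 2-fold). For K450R, 0 were higher and 1 was lower, HIST1H4J at −0.61 on the log2 scale, against 6.74% and 5.83% of all genes (2.21% and 2.12% past 2-fold). For K451R, 1 was higher and 0 were lower, against 5.74% and 5.56% (1.8% and 1.94% past 2-fold). It was HIST1H3E at 0.70 on the log2 scale, from 3.53 to 5.78 CPM (29 and 71 counts). For K450RK451R, 0 were higher and 1 was lower, HIST1H2BE at −0.59, from 10.0 to 6.66 CPM, against 8% and 5.54% (2.67% and 1.85% past 2-fold). A single gene of 45 is 2.22%, below each of the 1.5-fold backgrounds.

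The lines differed in how many clustered histone genes were higher with Dox. WT had 40 of 45, K450R 27, K451R 34 and K450RK451R 25, with medians of 0.14, 0.04, 0.12 and 0.06, where 51.3%, 51.2%, 49.6% and 50.1% of all genes were higher. With library totals the numbers were 41, 28, 42 and 33, the medians 0.18, 0.07, 0.25 and 0.19 and the shares of all genes 57.7%, 55.0%, 69.5% and 69.1%, so the order of the lines depended on the scaling. The median of all genes moved with it, from 0.007, 0.007, −0.002 and 0.0006 to 0.04, 0.03, 0.13 and 0.14. In WT the ratio of HIST1H3E was 0.57, followed by HIST1H2AB (0.50) and HIST1H2AD (0.49), and in K450RK451R HIST1H2BK stood at 0.51 and HIST1H1T at −0.56. HIST1H2AD was at −0.51 and HIST1H2AL at 0.48 in K450R, and HIST1H3A at 0.54 and HIST1H2AJ at 0.49 in K451R. Several of these ratios rest on few counts. With Veh and then Dox, HIST1H3E had 45 and 50 counts and HIST1H2AD 20 and 21 in WT. HIST1H2AD had 21 and 17 in K450R, and HIST1H1T 35 and 31 in K450RK451R. The differences between lines were not tested.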

How the data were processed

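RNA-seq libraries were made from LNCaP RNA with a stranded total RNA kit and read as 51 nt single ends. Per the labels, the authors' tools were FastQC 0.11.9, STAR 2.7.2 and featureCounts 1.6.4, and the reads were mapped to hg19. They deposited raw counts per gene, without normalization. The treatment of strand and of reads with several positions is not given in the sources used here.

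After TMM scaling and edgeR's filter by expression, the counts were tested with the quasi-likelihood method (edgeR 4.0.16 in R 4.3.3, newer version with legacy = FALSE, chosen after output of the legacy version had been seen) with Benjamini-Hochberg adjustment over all genes. The siRNA samples were compared as 2 against 2. For Dox, the 2 columns of a condition were summed and the 4 lines served as replicates with line as a covariate. Within a line, log2 ratios of CPM with 0.5 counts added are given. A level of 3 counts was taken as the floor. Gene models, stem-loops and unique 51-base stretches came from GRCh37 with GENCODE annotation, in which 40 genes matched by identifier and 31 by current symbol, and promoters from RefSeq.

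Named genes were the 3 highest of each family, the called genes, the 3 largest changes per comparison or line with a mean count of at least 20, genes with under 50% unique stretches and EHMT1, plus, from the other lists, called genes and SLBP, NPAT, H2AFZ and H3F3B. HIST1H1D, HIST1H2AH, HIST1H2BM, the other genes with a value and the genes at the floor were named after their values were seen. The genes and lists were chosen with earlier results of these data known. On simulated counts, 98.5% and 99.5% of 200 genes changed by 1 on the log2 scale were recovered in the siRNA and Dox designs. The dispersion was fixed at 0.005 and the changed genes had mean counts over 50. Smaller changes, the size of nearly all those given here for clustered histone genes, were not simulated, so the sensitivity to them is not known. Other settings were DESeq2 1.42.0, limma-voom 3.58.1, other scalings and filters, a replicate block and leaving out each sample or line.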

Additional observations from a re-analysis of the deposited data

Results flagged for a closer look

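In 89 sets of 4 values (levels or Dox ratios over the 4 lines), 10 had 1 line set apart by Dixon's test, and chance gives about 1 set in 20. The sets share the same libraries and scaling, so they are not independent, and their number cannot be read as an excess over chance. With Veh, WT was the low one for HIST1H1B (188 CPM against 215 to 219.9 in the other 3 lines), HIST1H1E (679.6 against 768 to 784), HIST1H2BC (193 against 215 to 219) and HIST2H2BE (283 against 323 to 326). Other Veh values set apart were HIST1H2BE in K451R (6.56 CPM against 9.71 to 10.1) and HIST1H3H in K450R (257 against 209 to 212). With Dox, K450RK451R was low for HIST1H1C (816 CPM against 942 to 963) and HIST1H1T (2.40 against 3.52 to 3.61). The log2 ratio of Dox over Veh set K450RK451R apart for HIST1H2BO (0.48 against 0.20 to 0.24) and K450R for HIST2H3D (−0.36 against 0.14 to 0.18). Each line was 1 library per condition.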

How the results depend on the processing

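The siRNA comparison gave 0 clustered histone genes higher or lower at an adjusted p under 0.05 under each full-sample setting. Of all genes, 0.0138% to 0.385% were called higher under these settings and 0.0153% to 0.427% lower. At an unadjusted p, 3 were higher with DESeq2 and 2 with library totals, with 0 lower under both. Of all 14532 genes, 215 were higher and 311 lower with DESeq2, and 441 and 266 with library totals. The median stayed positive, at 0.05 to 0.14 with a sample left out. Same-numbered siRNA samples shared only a number (Pearson r = −0.00226 across genes). With the number as a replicate block, 0 clustered histone genes were called, and 9 were higher and 1 was lower at an unadjusted p. Of all 14532 genes, 118 were then called, and 748 were higher and 890 lower at an unadjusted p. With Dox, the count called higher was 2 with the legacy edgeR method, limma-voom or a filter at 1 CPM and 1 with DESeq2. It was 3 with upper-quartile scaling or no filter and 10 with library totals. Under these settings 0.163% (DESeq2) to 2.31% (library totals) of all genes were called higher. With a line left out, 0 to 4 were called higher and 0 to 1 lower, against 0.142% to 1.27% and 0.665% to 2.25% of all genes. At an unadjusted p, leaving out a line gave 9 to 14 higher and 0 to 2 lower, where 675 to 1153 of all genes were higher and 751 to 1212 lower. DESeq2 and library totals gave 0 lower, where 645 and 445 of all 14105 genes were lower. With the 16 columns as samples, 17 were called higher and 1 lower, against 6.99% and 7.88% of all genes. With a replicate block added the counts were the same, against 6.55% and 7.45%. At an unadjusted p, 2 were lower under both, against 1957 and 1910 of 13765 genes. The 2 columns of a condition differed by no more than counting noise, so these fits overstate the number of samples. The median was 0.14 with library totals and 0.019 to 0.13 with a line left out. Past 1.5-fold within lines, library totals gave 1 of 45 higher for WT, 4 for K451R and 2 for K450RK451R. Of all 14105 genes, 760, 1285 and 1695 were then higher in these lines. In K450RK451R 0 of 45 were then lower, against 534 of all genes. At 2-fold every line had 0. The log2 ratio of the summed share with TMM-scaled sizes was 0.14 for WT, 0.0074 for K450R, 0.024 for K451R and −0.0050 for K450RK451R. Without mitochondrial and rRNA-like genes it was 0.12, 0.061, 0.087 and 0.064, and without genes that have a longer transcript it was 0.059 (K450R), 0.21 (K451R) and 0.18 (K450RK451R). Causes were not tested. Depth limits the genes under 100 counts, and intervals cover counting error only.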

Other observations

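Within divergent pairs, the Dox log2 fold changes over the 4 lines were 0.27 for HIST1H2BK and 0.22 for HIST1H2AH, 0.24 for HIST1H2BL and 0.11 for HIST1H2AI, 0.12 for HIST1H2BN and 0.17 for HIST1H2AK, and 0.003 for HIST1H2BJ and 0.12 for HIST1H2AG. They were −0.16 for HIST2H2BE and 0.14 for HIST2H2AC, −0.03 for HIST1H2BM and 0.23 for HIST1H2AJ, −0.15 for HIST3H2BB and 0.09 for HIST3H2A, and −0.02 for HIST1H2BC and 0.02 for HIST1H2AC. Of these 8 pairs, which are all the H2A and H2B pairs with both genes tested, 4 had both values positive and 4 had the H2B gene negative and the H2A gene positive, across 218 to 244 bases. Values near 0 count in these tallies, and none of these genes passed an adjusted p of 0.05.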
